A study of Mus musculus with 12 samples.

Results

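The 10 core circadian clock genes Arntl, Clock, Npas2, Per1, Per2, Per3, Cry1, Cry2, Nr1d1 and Nr1d2 were followed in the gonadal fat pad of C57BL/6N males. Members were chosen by name: every probe whose RefSeq accession belongs to one of these genes was taken, which gave 1 probe and 1 spot for each of the 10 genes among 31453 genes or unnamed probes tested. All 10 passed the filter on dim probes. The mice came from interbreeding whole-body Gadd45a and Ing1 mutants and were wild type (WT), Gadd45a deficient (Gadd45a-KO), Ing1 deficient (Ing1-KO) or deficient in both (DKO), and were 59 to 67 days old. Gadd45a encodes a stress-induced protein with roles in DNA repair and demethylation, and Ing1 a chromatin reader of methylated histone H3. Each genotype has 3 one-colour arrays, each of RNA pooled from 3 animals, and p-values measure the spread between such pools. The labels give no time of day of tissue collection, and its part in the values below was not tested.

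The clock is a feedback loop of transcription. The activators ARNTL (also called BMAL1), CLOCK and its paralog NPAS2 pair up on E-box sequences and switch on the Per, Cry and Nr1d genes. PER and CRY proteins then inhibit the activator pair, while NR1D1 and NR1D2 (REV-ERB alpha and beta) repress Arntl through ROR elements (RORE). D-boxes are bound by DBP, TEF and HLF, which activate, and by NFIL3, which represses. In fat and other peripheral tissues Arntl and Npas2 peak when Dbp, the Per genes and the Nr1d genes are low, and the loop is known to gate lipid metabolism.

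Promoter windows from RefSeq (build GRCm38.p6), 250 bases before to 50 bases after a gene's start, were at hand for 9 of the 10 genes, 13 windows in all, and Per2 is named only. They were searched on both strands for the E-box CACGTG, the D-boxes TTATGTAA or TTACGTAA and the RORE core TAGGTCA, and no matches overlapped. Shown are the 4 windows with a match, each read along the gene's strand in lower case with the match in capitals, since they set the activator Arntl beside 3 of its repressors.
Arntl: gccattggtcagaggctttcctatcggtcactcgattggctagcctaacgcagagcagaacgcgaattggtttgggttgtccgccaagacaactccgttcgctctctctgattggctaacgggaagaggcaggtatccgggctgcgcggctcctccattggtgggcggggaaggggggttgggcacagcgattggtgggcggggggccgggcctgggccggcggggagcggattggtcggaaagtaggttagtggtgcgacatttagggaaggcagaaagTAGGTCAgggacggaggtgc
Per1: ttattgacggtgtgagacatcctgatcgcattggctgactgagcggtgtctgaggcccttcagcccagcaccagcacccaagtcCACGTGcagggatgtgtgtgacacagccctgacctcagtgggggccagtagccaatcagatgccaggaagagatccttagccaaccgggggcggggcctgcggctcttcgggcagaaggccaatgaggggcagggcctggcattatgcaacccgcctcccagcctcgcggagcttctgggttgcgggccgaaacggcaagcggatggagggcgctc
Per3: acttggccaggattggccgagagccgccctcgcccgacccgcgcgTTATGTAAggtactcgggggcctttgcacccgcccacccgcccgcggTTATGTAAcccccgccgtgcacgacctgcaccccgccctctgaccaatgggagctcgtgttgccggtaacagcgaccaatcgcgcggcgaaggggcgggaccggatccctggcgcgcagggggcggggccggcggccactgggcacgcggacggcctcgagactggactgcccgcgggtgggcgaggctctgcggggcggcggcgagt
Cry1: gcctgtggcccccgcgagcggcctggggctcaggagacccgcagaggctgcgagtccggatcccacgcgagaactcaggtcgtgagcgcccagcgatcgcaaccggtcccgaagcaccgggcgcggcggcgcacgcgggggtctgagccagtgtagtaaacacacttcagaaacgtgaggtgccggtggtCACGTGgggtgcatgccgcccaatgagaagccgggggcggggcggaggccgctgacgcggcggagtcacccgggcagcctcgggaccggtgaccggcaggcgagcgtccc
The Arntl window (chr7:113207261-113207560, plus strand) holds a RORE core at base 31 of the transcript, and 2.61% of 32851 windows of all genes hold one. The Per1 window (chr11:69098699-69098998) has an E-box 166 bases before the start and the Cry1 window (chr10:85185005-85185304, minus strand) one 60 bases before it, against a share of 7.15% of all windows. The Per3 window (chr4:151044616-151044915, minus strand) has 2 D-boxes, 205 and 158 bases before the start, and 1.06% of all windows hold a D-box. The other windows of Arntl, Clock, Npas2, Per1, Cry2, Nr1d1 and Nr1d2 hold none of these letters in this stretch.

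Between 58.2% and 68.1% of 59305 spots per array were well above background, and the median processed signal was 39.3 to 68.8 intensity units, lowest in WT replicate 2. The 10 white adipocyte markers (Adipoq, Lep, Plin1 and others) were well above background on every array, and of the 6 epididymis and testis markers Crisp1, Lcn5 and Adam7, which mark epididymis, were above it on 0 arrays. The sperm cell markers of that list were detected, Prm1 on 9, Prm2 on 12 and Tnp1 on 10 arrays, with mean log2 signals of 5.02, 6.38 and 4.85. Ing1 signal fell by 3.06 in Ing1-KO and by 3.14 in DKO against WT on the log2 scale. The Gadd45a probe was higher, not lower, in the arrays labelled as lacking Gadd45a, at 10.05 to 10.62 against 9.06 to 9.80. The position of the probe relative to the deletion is not given, so the probe does not settle which arrays lack Gadd45a, and the genotypes below are those of the labels. The 10 skeletal muscle markers stood above the other arrays on the slide 1 arrays of Ing1-KO, DKO and Gadd45a-KO, by a mean deviation of 3.61, 2.19 and 1.26 on the log2 scale.

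All 3 activators had their highest measured mean in DKO, and Arntl had its lowest in Ing1-KO. Arntl had a normalized log2 signal of 9.89, 9.21 and 9.44 in WT, 9.21, 9.58 and 9.73 in Gadd45a-KO, 9.21, 9.26 and 9.23 in Ing1-KO and 9.65, 10.10 and 9.53 in DKO. The 3 Ing1-KO arrays lay close together and below all DKO arrays, while WT reached from the bottom of the range to above 2 of the DKO arrays. Clock had a log2 signal of 9.44, 9.09 and 9.03 in WT, 8.97, 9.17 and 9.19 in Gadd45a-KO, 9.59, 9.17 and 9.10 in Ing1-KO and 10.01, 10.01 and 9.44 in DKO. Every DKO array had a higher Clock signal than every WT and Gadd45a-KO array, though DKO replicate 3 and WT replicate 1 were nearly equal. Npas2 was dim, with a log2 signal of 5.62, 3.03 and 3.99 in WT, 3.93, 3.65 and 3.63 in Gadd45a-KO, 3.15, 3.50 and 3.47 in Ing1-KO and 4.44, 5.13 and 4.33 in DKO. It was well above background on 2, 1, 0 and 3 of the 3 arrays in that order of genotypes, so in Ing1-KO it has only an upper bound. The measured Npas2 mean of 3.74 in Gadd45a-KO lay below the Ing1-KO bound of 4.05, so which genotype was lowest is not settled.

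The Period genes, whose proteins inhibit the activator pair, were highest in Ing1-KO. Per2 had a log2 signal of 7.31, 7.33 and 7.99 in WT, 7.54, 7.43 and 7.74 in Gadd45a-KO, 8.17, 8.47 and 8.81 in Ing1-KO and 7.22, 7.37 and 8.52 in DKO. Ing1-KO lay above all WT and Gadd45a-KO arrays, and DKO held both the lowest of the 12 arrays and one inside the Ing1-KO range. Per3 had a log2 signal of 7.22, 7.51 and 7.85 in WT, 7.78, 7.59 and 7.45 in Gadd45a-KO, 7.83, 8.42 and 8.41 in Ing1-KO and 7.64, 8.11 and 7.78 in DKO. Per1, which glucocorticoids also induce, had a log2 signal of 12.28, 12.87 and 12.47 in WT, 12.51, 12.43 and 12.91 in Gadd45a-KO, 13.02, 12.87 and 13.02 in Ing1-KO and 13.02, 12.23 and 12.72 in DKO. For both, Ing1-KO had the highest mean and overlapped WT.

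Among the other repressors only Nr1d2 had genotypes whose values did not overlap. Nr1d2 had a log2 signal of 9.92, 10.17 and 10.39 in WT, 10.25, 10.34 and 10.17 in Gadd45a-KO, 10.90, 10.64 and 10.60 in Ing1-KO and 10.25, 10.50 and 10.64 in DKO, so that Ing1-KO lay above all WT and Gadd45a-KO arrays. Its paralog Nr1d1 had a log2 signal of 10.29, 11.22 and 10.38 in WT, 10.59, 10.41 and 9.70 in Gadd45a-KO, 11.23, 10.62 and 10.38 in Ing1-KO and 11.01, 11.29 and 10.45 in DKO, with overlap between every pair of genotypes. Cry2, the brighter cryptochrome probe, ranged from 12.30 to 13.27 over the 12 arrays with a median of 12.59, and WT alone spanned 12.31 to 13.09. Cry1 ranged from 4.08 in WT replicate 2, where it was not well above background, to 5.73 in Ing1-KO replicate 3.

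**Figure D1:**
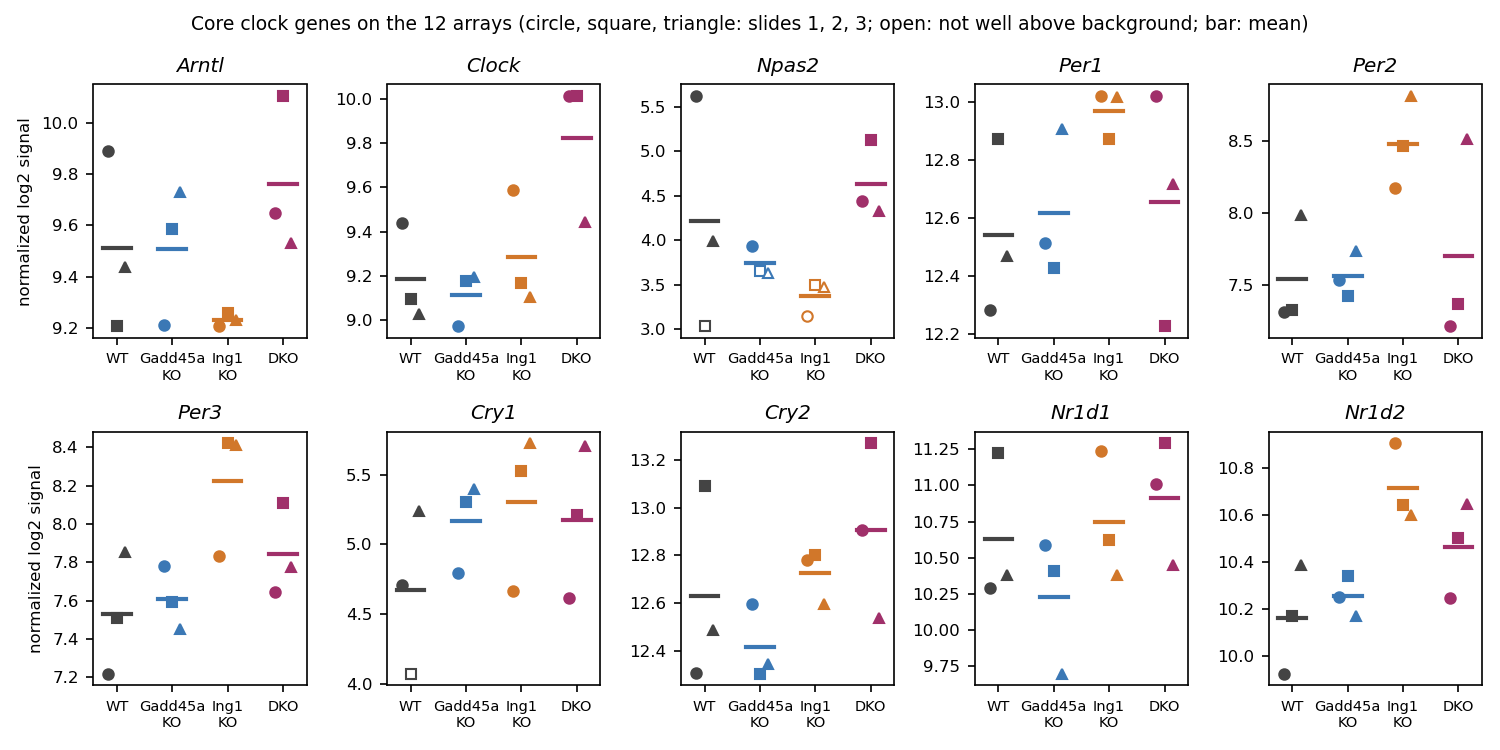
Normalized log2 signal (vertical axes) of the 10 clock genes by genotype, 1 point per array and a bar at the mean of 3 arrays. Arntl sits at 9.21 to 9.26 in Ing1-KO, where Per2 sits at 8.17 to 8.81, above its WT values of 7.31 to 7.99, and Clock sits at 9.44 to 10.01 in DKO.

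The first question was whether loss of either gene alone changed the clock genes. In Ing1-KO against WT, the 3 Period genes and both Nr1d genes had positive log2 fold changes and Arntl a negative one, but none of the 10 genes passed the adjusted threshold in limma. The log2 fold change was 0.94 ± 0.32 (SE, 3 against 3 arrays) for Per2, a 1.92-fold difference, and 0.70 ± 0.21 for Per3. It was 0.55 ± 0.15 for Nr1d2, 0.43 ± 0.21 for Per1 and -0.28 ± 0.20 for Arntl. The activator Clock was positive at 0.10 ± 0.19, as were Cry1 (0.63 ± 0.38), Cry2 (0.10 ± 0.21) and Nr1d1 (0.11 ± 0.32). The adjusted p of the 10 genes in limma was 0.424 at the lowest, and 0.00318% of all genes were called in this comparison. At an unadjusted p under 0.05 in limma stood 3 of the 10 genes, Nr1d2, Per3 and Per2, where 8.6% of all genes stood. Values of Per2 and Nr1d2 did not overlap between the genotypes and were higher in Ing1-KO, 2 of 10 genes against 7.24% of all genes. Within the slides Per2 was higher in Ing1-KO by 0.86, 1.14 and 0.83 on the log2 scale, Per3 by 0.62, 0.91 and 0.56 and Nr1d2 by 0.98, 0.47 and 0.21. Signs turned on slide 1 for Cry1 (-0.043), on slide 2 for Arntl (0.05), Per1 (-0.00095), Cry2 (-0.29) and Nr1d1 (-0.60), and on slide 3 for Nr1d1 (-0.0017). Npas2 in WT was at least 1.12-fold above its bound in Ing1-KO (measured log2 means 4.22 and 3.37, limma adjusted p = 0.657), with 2 of 3 WT arrays above background. That bound rests on WT replicate 1: without it the WT mean was 3.51, below the Ing1-KO bound of 4.05, and on slide 2 the measured Npas2 signal was higher in Ing1-KO by 0.46.

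In Gadd45a-KO against WT, 0 of the 10 genes were called by limma and 0 had an unadjusted p under 0.05, against 0% of all genes called and 2.35% of all genes at that unadjusted p. The median log2 fold change of the 10 genes was 0.01, with 5 positive and 5 negative. The 6 arrays labelled as lacking Gadd45a against the other 6 gave 0 members called and 0 at an unadjusted p under 0.05, where 0.00318% and 0.935% of all genes stood. Neither comparison separated the genotypes for any clock gene.

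In DKO against WT all 10 clock genes had a positive log2 fold change, activators and repressors alike, with a median of 0.29 against -0.04 over all genes. None was called by limma, where 0.162% of all genes were called. Clock came nearest, at a log2 fold change of 0.64 ± 0.19, a 1.56-fold difference, with a limma adjusted p of 0.0985 and the only unadjusted p under 0.05 of the 10 (23% of all genes). Its values did not overlap, and it was higher in DKO, as were those of 9.66% of all genes. Within the slides it was higher by 0.58, 0.92 and 0.42. Without DKO replicate 3 the Clock adjusted p in limma was 0.0224, where 3307 of 31453 genes were called in place of 51. No other omission of a single array gave a Clock call. The log2 fold changes of the other members lay between 0.11 ± 0.21 for Per1 and 0.50 ± 0.38 for Cry1, with 0.42 ± 0.52 for Npas2, 0.25 ± 0.20 for Arntl and 0.16 ± 0.32 for Per2. These comparisons share the WT arrays.

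Taking the 6 arrays that lack Ing1 against the 6 that carry it, Nr1d2 rose by 0.38 ± 0.10 on the log2 scale (SE, 6 against 6 arrays), a 1.30-fold rise with an adjusted p of 0.0302 in limma. It was the one member called, 1 of 10, where 6.93% of all genes were called higher and 9.09% lower, so the share of members called was near the background. Nr1d2 was higher by 0.49, 0.32 and 0.34 within slides 1, 2 and 3. The other members had adjusted p-values of 0.0552 for Per3 (log2 fold change 0.46 ± 0.15), 0.0578 for Clock (0.41 ± 0.13) and 0.117 for Per2 (0.54 ± 0.22), while Arntl stood at -0.01 ± 0.14. With the slide as a block, limma called 4 of the 10 genes higher, against 8.78% of all genes: Nr1d2 (adjusted p = 0.0320), Per2 (0.0253), Clock (0.0383) and Per3 (0.0416). Without the 3 arrays highest in skeletal muscle markers 0 members and 1 of all genes were called, with Nr1d2 at 0.39 and an adjusted p of 0.116 in limma. Leaving out single arrays ended the Nr1d2 call in 6 of 12 cases (WT replicate 1, Gadd45a-KO replicates 1 and 3, Ing1-KO replicates 1 and 3, and DKO replicate 2), with adjusted p-values of 0.0503 to 0.0778.

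Markers of several cell types also differed in this comparison, those of neutrophils with the largest median in size of the 8 marker lists. Of 8 neutrophil markers (S100a8, S100a9, Elane and others) 6 fell and 0 rose in limma in the 6 against 6 comparison, with a median log2 fold change of -1.86. Of all genes 9.09% were called lower there. Against WT the median of these 8 markers was 2.84 in Gadd45a-KO and -0.23 in Ing1-KO, with 0 called in either. Their mean deviation was highest on the Gadd45a-KO arrays, at 3.53, 2.23 and 0.70, against 0.35, -0.08 and -1.17 in WT, 0.19, -1.41 and -1.09 in Ing1-KO and -1.61, -0.73 and -0.91 in DKO, so that WT overlapped the arrays lacking Ing1. Their summed log2 signal was 10.61 to 11.72 on the arrays lacking Ing1 and 10.60 to 15.44 on the others, and 5 to 8 of the 8 were above background on an array. The summed log2 signal of the 7 measured of 8 T cell markers was 14.22 to 15.73 on the arrays lacking Ing1 and 15.63 to 16.20 on the others. That of the 5 measured of 6 macrophage markers was 15.10 to 15.43 against 15.49 to 16.05, and that of the 10 white adipocyte markers 20.07 to 20.62 against 19.78 to 20.55. The 5 endothelial markers gave 13.14 to 13.95 against 12.97 to 13.69. The T cell, adipocyte and endothelial ranges overlap between the sets, and the macrophage ranges do not. In the 6 against 6 comparison limma called 5 T cell and 2 macrophage markers lower, where 9.09% of all genes were. It called 3 adipocyte markers and 1 endothelial marker higher, where 6.93% of all genes were. All measured markers of the T cell, macrophage, adipocyte and endothelial lists were above background on every array, Trbc2 and Cd68 had no named probe, and the part of the 5 lists in the Nr1d2 rise was not tested. In whole tissue, fewer cells of a type and less RNA per cell cannot be told apart.

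Whether the DKO differed from the single knockouts was compared after values had been seen. Against Ing1-KO, the activators were higher in DKO and the Period genes lower. Arntl had a log2 fold change of 0.53 ± 0.20 and Clock 0.54 ± 0.19, against -0.78 ± 0.32 for Per2, -0.38 ± 0.21 for Per3 and -0.31 ± 0.21 for Per1. The other repressors were split. Cry2 (0.18 ± 0.21) and Nr1d1 (0.17 ± 0.32) were positive like the activators, and Cry1 (-0.13 ± 0.38) and Nr1d2 (-0.25 ± 0.15) negative. Npas2 was at least 1.5-fold higher in DKO than its bound in Ing1-KO (measured log2 means 4.63 and 3.37, limma adjusted p = 0.948). None was called by limma, the lowest adjusted p being 0.948, where 0.00318% of all genes were called. Unadjusted p-values under 0.05 were those of Clock, Arntl, Per2 and Npas2, 4 of 10 genes where 3.51% of all genes stood. Measured values of Arntl and Npas2 did not overlap between the genotypes and were higher in DKO, 2 of 10 against 5.14% of all genes. For Npas2 neither this nor the unadjusted p is settled, since 0 of the 3 Ing1-KO arrays were well above background. On Ing1-KO replicate 2 the lowest signal called above background was 4.40, higher than Npas2 on DKO replicate 3 at 4.33. Arntl was higher in DKO by 0.44, 0.85 and 0.30 within the slides, and Per2 was lower on each, at -0.96, -1.09 and -0.30.

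Against Gadd45a-KO, Clock rose in DKO by 0.71 ± 0.19 on the log2 scale, 1.64-fold, with an adjusted p of 0.0316 in limma, and it was 1 of 10 members called where 6.49% of all genes were called higher. Within the slides it was higher by 1.04, 0.84 and 0.25. The call was lost without any 1 of the 3 Gadd45a-KO arrays or of DKO replicates 1 and 2 (adjusted p of 0.0723 to 0.117), and without the 3 arrays highest in muscle markers the log2 fold change was 0.54 with an adjusted p of 0.173. Measured values of Clock and Npas2 did not overlap and were higher in DKO, 2 of 10 against 16.5% of all genes. Npas2 was well above background on 1 of the 3 Gadd45a-KO arrays, so its part in this count is not settled. On the T cell list the 3 DKO arrays deviated by -0.50, -1.23 and 0.00 and the Gadd45a-KO arrays by 0.32, 0.32 and 0.61 on the log2 scale. Of the 8 neutrophil markers 6 fell in limma in this comparison, with a median log2 fold change of -3.52, where 8.47% of all genes were called lower. Of the 10 white adipocyte markers 4 rose and 0 fell, with a median of 0.75 and all 10 positive. Over the 12 arrays Clock had an r of -0.84 with the T cell list, 0.72 with the adipocyte list and -0.40 with the neutrophil list, as a description. The part of these lists in the Clock difference was not tested. The effect of Ing1 loss was next set against itself with and without Gadd45a. This interaction was 0.53 ± 0.28 for Arntl, 0.61 ± 0.27 for Clock and -0.81 ± 0.45 for Per2 on the log2 scale, and 0 members were called by limma (lowest adjusted p 0.728), as were 0% of all genes. An unadjusted p under 0.05 was found for 2 of the 10 genes and for 5.93% of all genes. The 2 were Clock and Npas2, and that of Npas2 rests on Ing1-KO values not well above background.

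**Figure D2:**
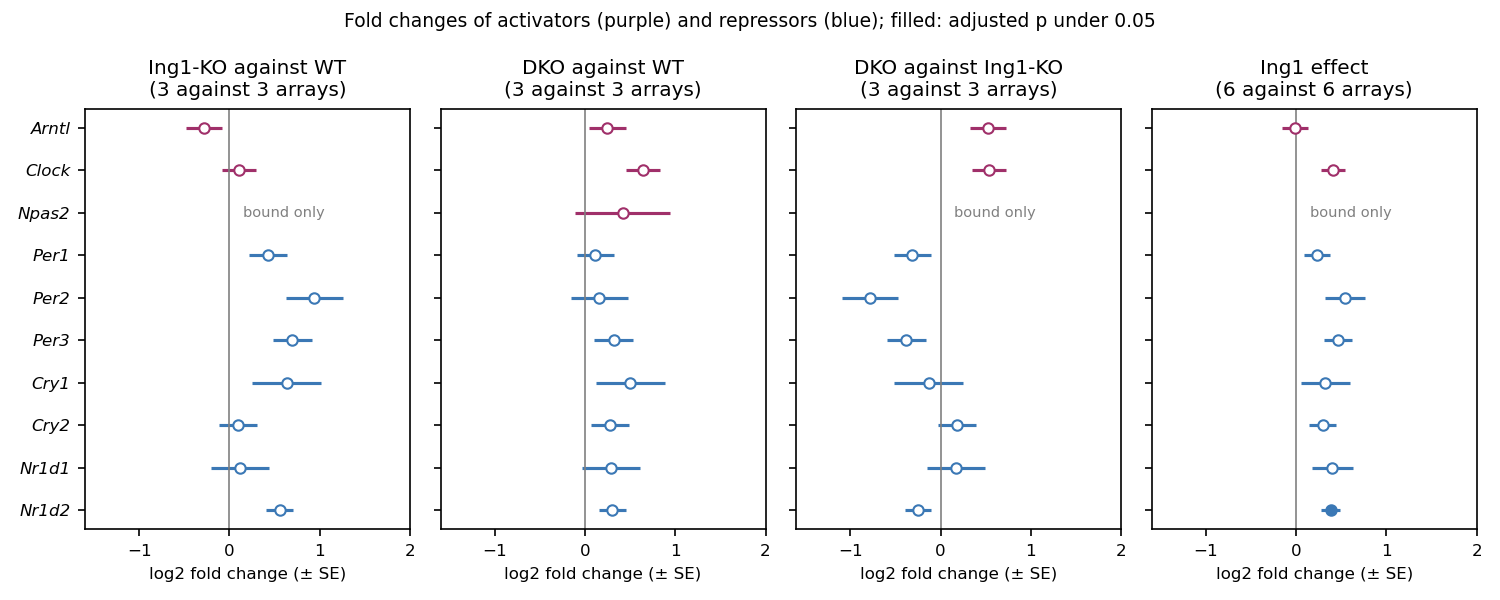
Log2 fold change with SE (horizontal axes) of each clock gene in 4 comparisons, with activators in purple and repressors in blue. In Ing1-KO against WT Per2 lies at 0.94 and Arntl at -0.28, in DKO against Ing1-KO Per2 lies at -0.78 and Arntl at 0.53, and Nr1d2 in the 6 against 6 comparison is the one filled point; Npas2 is left out where Ing1-KO gives only a bound.

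The next question was whether activators and repressors moved in opposite directions from array to array. Over the 12 arrays Arntl rose with Npas2 (Pearson r = 0.82, Spearman rho = 0.79, permutation p = 0.00125, adjusted over the 9 pairs 0.0112), although Npas2 was well above background on only 6 arrays. Without DKO replicate 2 and WT replicate 1, the arrays farthest from the median of Arntl, r was 0.59 and no longer passed the adjustment (permutation p adjusted to 0.311). Their omission also narrows the range of Arntl and leaves fewer arrays, so it cannot tell whether the relation rests on these 2 arrays. Within genotypes and slides, after both means were subtracted, r was 0.81. Arntl and Clock had r = 0.62 and rho = 0.54 (permutation p = 0.0321, adjusted 0.128), and 0.38 without the same 2 arrays.

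Among the repressors, Arntl had negative coefficients with all 3 Period genes and none that passed the adjustment. With Per1 r was -0.59 and rho -0.53 (permutation p = 0.0426, adjusted 0.128), and -0.12 without the 2 farthest arrays. With Per2 r was -0.50 and rho -0.43 (permutation p = 0.0988, adjusted 0.222), and with Per3 r was -0.33 and rho -0.31 (permutation p = 0.292, adjusted 0.438). Without the 2 farthest arrays these were -0.33 and -0.53, so that the coefficient moved towards zero for Per1 and Per2 and away from it for Per3. With Nr1d2 r was -0.39 and rho -0.41 (permutation p = 0.211, adjusted 0.379), and -0.41 without those 2 arrays. With Nr1d1 r was -0.11 and rho -0.28 (permutation p = 0.741, adjusted 0.833), and -0.54 without them, negative for both Nr1d genes with and without those arrays. The cryptochromes had r of 0.11 and rho of 0.13 for Cry1 (permutation p = 0.738, adjusted 0.833; 0.27 without the 2 arrays) and r of 0.01 and rho of -0.24 for Cry2 (permutation p = 0.966, adjusted 0.966; -0.50 without them).

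Taken as a description over all pairs, 15 of 21 activator and repressor pairs had a negative r, the 3 activator pairs were all positive and 16 of 21 repressor pairs were positive. With each genotype's mean subtracted, 17 of the 21 activator and repressor pairs were negative, and the repressor pairs went from 5 to 9 negative of 21, with a median r of 0.05 in place of 0.34. The repressors did not form 1 group: Per2 went with Nr1d2 (r = 0.72) and Cry1 (0.69), and Nr1d1 went with Cry2 (0.86) and against Cry1 (-0.55). The pairs share arrays, slides and genotypes, and no p is given for them.

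The gene whose pattern was most opposite to Arntl was another clock gene. Among 4821 named genes well above background on all 12 arrays with an SD of at least 0.3, Dbp, a D-box activator switched on by the ARNTL pair, had the lowest r with Arntl, at -0.87. It was followed by Scx (-0.80), Pcsk4 (-0.77), Slc5a6 (-0.73) and Ltk (-0.72). Dbp had a log2 signal of 13.84, 14.92 and 14.55 in WT, 14.75, 14.30 and 14.51 in Gadd45a-KO, 14.90, 14.80 and 14.78 in Ing1-KO and 14.02, 14.12 and 14.63 in DKO. WT replicate 1, with the highest Arntl of its genotype, had the lowest Dbp of all arrays, and WT replicate 2, with the lowest Arntl of its genotype, had the highest. The r of Dbp and Arntl was -0.83 without the 2 farthest arrays, -0.79 with genotype means subtracted and -0.86 with slide means subtracted as well. The genes with the highest r were Ankrd2 (0.73), Angpt2 (0.71), Nfil3 (0.69), Abi3bp (0.67) and Gdf10 (0.66), among which Nfil3 encodes the D-box repressor. Ciart, a repressor of the ARNTL pair, had a log2 signal of 5.49, 7.06 and 6.53 in WT, 6.19, 6.23 and 6.96 in Gadd45a-KO, 6.90, 7.10 and 6.95 in Ing1-KO and 4.87, 5.63 and 7.33 in DKO, with r of -0.60 to Arntl and 0.71 to Per2. The r of Ciart and Arntl was -0.37 without the 2 farthest arrays, -0.41 with genotype means subtracted and -0.58 with slide means subtracted as well.

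**Figure D3:**
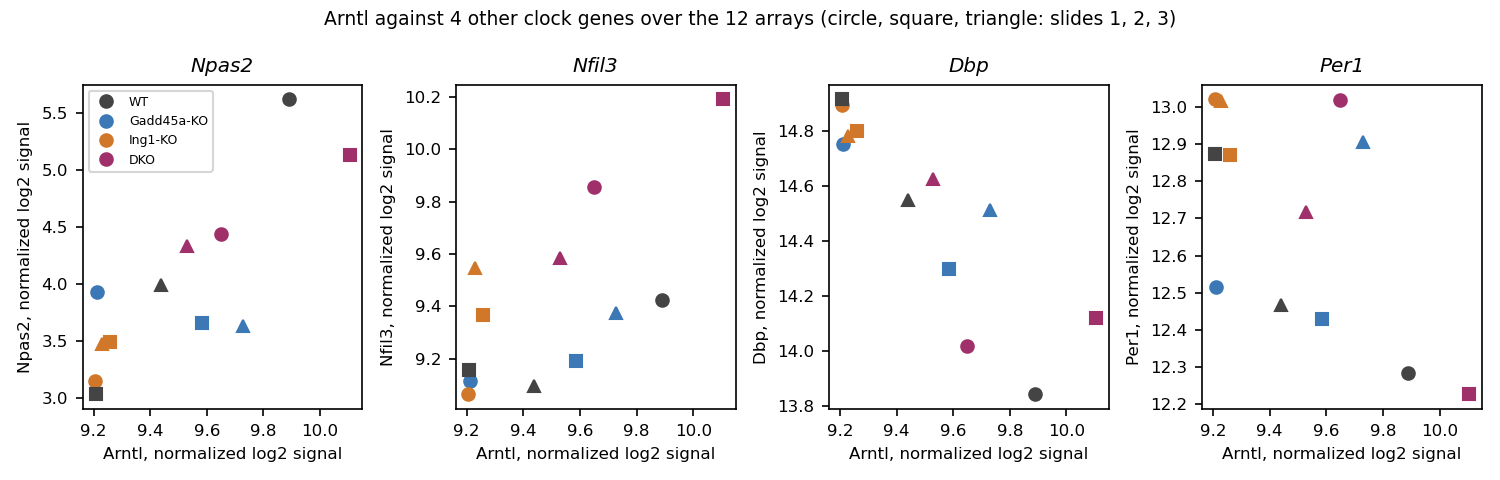
Normalized log2 signal of Npas2, Nfil3, Dbp and Per1 (vertical axes) against that of Arntl (horizontal axes), 1 point per array, coloured by genotype. Dbp falls as Arntl rises (r = -0.87), Npas2 rises with it (r = 0.82), and the 3 Ing1-KO arrays share the low Arntl end with WT replicate 2 and Gadd45a-KO replicate 1.

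Each class was averaged over its members as a deviation from the mean of all arrays, with Npas2 left out of the activators since Ing1-KO gives only a bound for it. Arntl and Clock together deviated by -0.03, -0.21 and -0.26 in Ing1-KO and by 0.40, 0.63 and 0.06 in DKO on the log2 scale. They deviated by 0.24, -0.28 and -0.20 in WT and by -0.34, -0.05 and 0.03 in Gadd45a-KO, so that Ing1-KO lay within the WT range. The 7 repressors deviated by 0.22, 0.32 and 0.35 in Ing1-KO and by -0.06, 0.13 and 0.18 in DKO. They deviated by -0.43, -0.12 and -0.04 in WT and by -0.15, -0.18 and -0.20 in Gadd45a-KO, so that each Ing1-KO array lay above all WT and Gadd45a-KO arrays. WT and Gadd45a-KO overlapped in both classes. On the Ing1-KO arrays, WT replicate 1, DKO replicate 1 and Gadd45a-KO replicate 3 the classes lay on opposite sides of the mean, on DKO replicates 2 and 3 both lay above it, and on the other 4 arrays both lay below. With the measured Npas2 values included, the activators deviated by -0.30, -0.31 and -0.35 in Ing1-KO and by 0.70 in WT replicate 1. No test is given for these averages.

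Nr1d1 was highest on the arrays highest in adipocyte markers. The 4 arrays with the highest Nr1d1 signal, DKO replicate 2 (11.29), Ing1-KO replicate 1 (11.23), WT replicate 2 (11.22) and DKO replicate 1 (11.01), were also the 4 highest on the list of 10 white adipocyte markers, with deviations of 0.43, 0.20, 0.24 and 0.60 against -0.49 to 0.08 on the other 8 arrays. The genes closest to Nr1d1 were Palmd (r = 0.94), Ptprg (0.93), Ttyh2 (0.93), Tenm4 (0.93) and Cdsn (0.93). The most opposite were Cmtm2a (-0.92), Mcemp1 (-0.91), Donson (-0.90), Klra7 (-0.89) and Tagap (-0.89). The likeness to adipocyte markers was not particular to Nr1d1. Over the 12 arrays the r with that list was 0.83 for Nr1d1, 0.85 for Cry2 and 0.72 for Clock, as a description. For the other members it lay between -0.36 (Cry1) and 0.28 (Per1). Nr1d1 and Cry2 both had an r of 0.78 with the endothelial list, and -0.75 and -0.77 with the T cell list. The part of these lists in the Nr1d1 values was not tested.

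**Figure D4:**
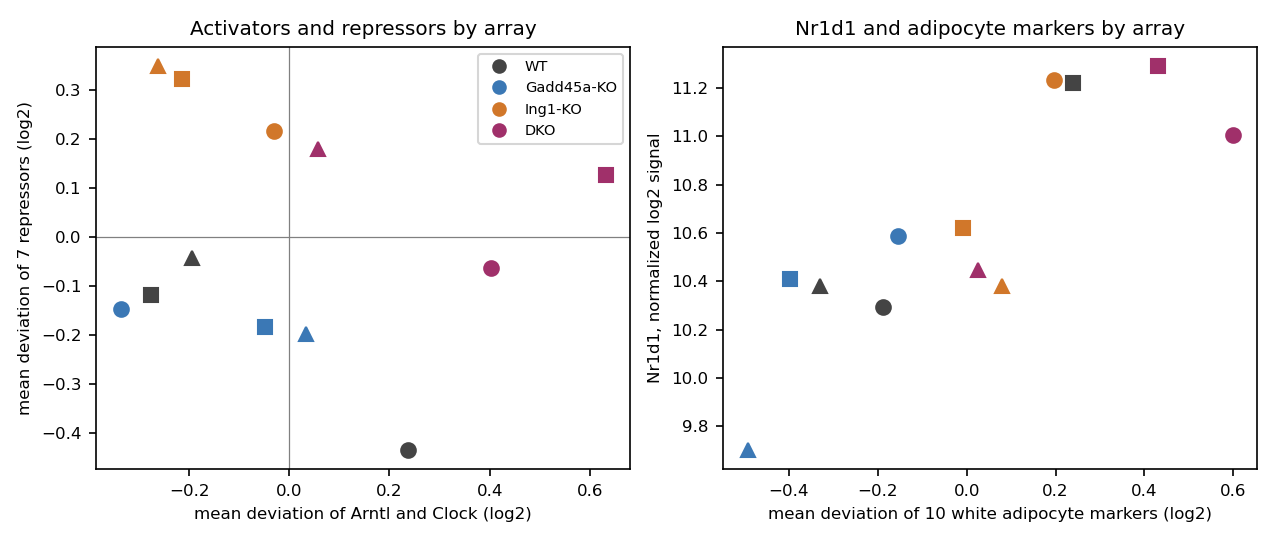
Left, mean log2 deviation of the 7 repressors (vertical) against that of Arntl and Clock (horizontal) on each array; right, normalized log2 signal of Nr1d1 against the mean log2 deviation of 10 white adipocyte markers. Ing1-KO arrays lie at activator deviations of -0.03 to -0.26, within the WT range, and at repressor deviations of 0.22 to 0.35, and the 4 arrays with Nr1d1 at 11.01 or more have the 4 highest marker deviations.

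Beyond the 10 members, Rora, Nampt and Noct rose on the arrays lacking Ing1. Of 15 further loop genes (the Ror genes, Bhlhe40 and Bhlhe41, Nfil3, Ciart, casein kinases, F-box proteins and others), 1 rose, 0 fell and 14 were not called in the 6 against 6 comparison, where 6.93% of all genes were called higher, with a median log2 fold change of 0.07 against -0.04 over all genes. Rora, an activator at ROREs, was the one that rose, by 0.64 ± 0.14 (limma adjusted p = 0.0172). Its log2 signal was 9.66, 9.54 and 9.54 in WT, 9.65, 9.54 and 9.41 in Gadd45a-KO, 10.43, 9.94 and 10.01 in Ing1-KO and 10.69, 10.34 and 9.78 in DKO. The 2 highest were the slide 1 arrays of Ing1-KO and DKO, which were also high in muscle markers. Without the 3 arrays highest in those markers (muscle-rich arrays below) the rise was 0.49 with an adjusted p of 0.0975, where 1 of all genes was called.

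Of 10 output genes, 2 rose and 0 fell in the same comparison, Nampt and Noct, where 6.93% of all genes were called higher and 9.09% lower. Nampt, which makes the NAD precursor NMN, had a log2 signal of 11.55, 11.43 and 11.62 in WT, 11.64, 11.68 and 11.43 in Gadd45a-KO, 12.15, 12.33 and 12.41 in Ing1-KO and 12.39, 12.28 and 12.36 in DKO. Nampt rose by 0.76 ± 0.08 (limma adjusted p = 0.0013), an adjusted p that stayed below the threshold without any single array. Without the 3 muscle-rich arrays it was 0.80 with an adjusted p of 0.0609. Noct, a deadenylase-family protein with a strong daily rhythm, had a log2 signal of 11.35, 10.68 and 10.62 in WT, 10.82, 10.79 and 11.05 in Gadd45a-KO, 11.47, 11.39 and 11.17 in Ing1-KO and 12.01, 12.03 and 11.53 in DKO, and rose by 0.71 ± 0.14 (adjusted p = 0.0113 in limma). Without the muscle-rich arrays the Noct difference was 0.63 with an adjusted p of 0.110. In DKO against WT, Nampt was the 1 output gene called, with a rise of 0.81 ± 0.11 (adjusted p = 0.0335 in limma), where 0.162% of all genes were called. That call was lost on leaving out any one of 8 arrays (WT replicates 1 and 3, Gadd45a-KO replicates 1 and 2, Ing1-KO replicates 2 and 3, DKO replicates 1 and 2), with adjusted p-values of 0.0512 to 0.142, and without the muscle-rich arrays, where the difference was 0.78 with an adjusted p of 0.270. Without those 3 arrays 0 loop genes and 0 output genes were called in either comparison. Of all 31453 genes only 1 was called in each comparison in that setting, so the lost calls are not particular to these genes. Noct (0.97 ± 0.20, adjusted p = 0.0648), Nfil3 (0.65 ± 0.18, adjusted p = 0.0857) and Rora (0.69 ± 0.20, adjusted p = 0.0967) had smaller p-values than the other loop and output genes there in limma, without a call.

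Nfil3 had a log2 signal of 9.42, 9.16 and 9.10 in WT, 9.11, 9.19 and 9.37 in Gadd45a-KO, 9.06, 9.37 and 9.55 in Ing1-KO and 9.85, 10.19 and 9.59 in DKO, so that DKO lay above every other array. Arntl2, a paralog of Arntl, had a log2 fold change of 1.08 ± 0.42 in DKO against WT (limma adjusted p = 0.159), with WT replicate 2 not well above background. Fbxl21, an F-box protein that binds cryptochromes, had one of 0.66 ± 0.32 (adjusted p = 0.247 in limma). Por, a clock-controlled electron donor to P450 enzymes, had 0.47 ± 0.15 in the 6 against 6 comparison (adjusted p = 0.0578 in limma). Dbp and Ciart had log2 fold changes of -0.18 ± 0.24 and -0.42 ± 0.54 in DKO against WT (limma adjusted p of 0.690 and 0.677). Of 10 glucocorticoid-responsive genes, a list that includes Per1, 2 rose and 0 fell in the 6 against 6 comparison, where 6.93% of all genes were called higher and 9.09% lower. They were Zbtb16 (0.85 ± 0.25, adjusted p = 0.0392 in limma) and Dusp1 (0.43 ± 0.11, adjusted p = 0.0299), named after their values were seen, while Fkbp5 stood at 0.04 ± 0.18 and Tsc22d3 at 0.18 ± 0.11. Zbtb16 was highest on the slide 1 arrays of Ing1-KO and DKO, at log2 signals of 12.67 and 12.81 against 10.90 to 11.95 on the other 10. Without the 3 muscle-rich arrays its difference was 0.42 (adjusted p = 0.149 in limma) and that of Dusp1 0.36 (adjusted p = 0.154), and both calls were lost. Of all genes 1 was called in that setting. Leaving out 1 array at a time ended the Zbtb16 call in 9 of 12 cases and the Dusp1 call in 7 of 12 (adjusted p of 0.0505 to 0.0952 and of 0.0542 to 0.0702 in limma). For Zbtb16 these were WT replicates 1 and 3, the 3 Gadd45a-KO arrays, Ing1-KO replicates 1 and 3, and DKO replicates 1 and 2, and for Dusp1 the same without Gadd45a-KO replicate 1 and Ing1-KO replicate 3.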

How the data were processed

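Gonadal fat RNA was hybridized to 12 one-colour arrays, 3 per genotype. Per the file headers, Feature Extraction 10.7.3.1 gave the deposited intensity values, background-subtracted within the array. The deposited table of the authors' log2 values names limma 3.26.9 per the submitters' processing notes, and its columns share nearly the same quartiles; it served as an alternative.

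From the scanner files, log2 processed signals without flagged spots were averaged per probe and scaled to the same 75th percentile. Probes well above background on at least 3 arrays were kept, 1 per gene with the highest mean, leaving 31453 tested. Names came from RefSeq accessions. limma 3.58.1 in R 4.3.3 fitted 4 genotype means with trended, robust moderation (8 residual degrees of freedom), two-sided, with Benjamini-Hochberg adjustment over all genes at 0.05. Folds on the log2 scale are first minus second genotype. Where a gene was not well above background in a whole genotype, its fold is a bound against the lowest signal called above background per array. Correlations used 100000 two-sided resamples. The fit was checked on simulated data with 200 changed genes. There it called 0% of 1.5-fold and 37% of 2-fold changes in DKO against WT. In the 6 against 6 Ing1 comparison it called 30% and 63.5% of them. A gene that was not called may therefore still differ by such a fold. The number of arrays limits precision, and arrays give no counts.

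The replicate number is the slide and scan, and each slide holds 1 array of every genotype. Same-numbered arrays of different genotypes had deviations with r of -0.28 to 0.42, a median of 0.12 and 9 of 18 pairs above 0.1. Arrays with different numbers had a median r of -0.10, with 8 of 36 pairs above 0.1. Same-numbered arrays were thus more alike, but slide was not put in the main model and served as a block in an alternative fit. Members and lists were chosen with earlier results of these data known. Named are all members, the 6 loop or output genes with the smallest p in DKO against WT and in the 6 against 6 Ing1 comparison, Dbp, Ciart, and the 5 most and least like Arntl and Nr1d1. Alternatives were quantile normalization, median centring, normexp with an offset of 50 on median spot signals, the authors' values, no filter or all 12 arrays, every probe, plain moderation, only the arrays compared, the slide as a block and each array left out; the 2 comparisons of DKO with single knockouts, the alternatives for Zbtb16 and Dusp1, the Npas2 bound without each WT array and the omission of 3 muscle-rich arrays were added after seeing the data.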

Additional observations from a re-analysis of the deposited data

How the results depend on the processing

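No clock gene that passed the threshold changed direction under any alternative run. In the 6 against 6 Ing1 comparison the number of members called was 2 with quantile normalization and with the filter on all 12 arrays, 3 with median centring, 4 with the replicate block, which uses the slide, and 0 without the 3 muscle-rich arrays. In DKO against Gadd45a-KO it was 0 with normexp, the authors' values, only the arrays compared, or no muscle-rich arrays. Genes called of all those tested were 5, 4, 2, 2 and 11 in Ing1-KO against WT with quantile normalization, median centring, normexp, the authors' values and every probe, against 1. In DKO against WT they were 202 with normexp, 25 with no filter, 4 with plain moderation, 653 with the replicate block, and 1 with only the arrays compared or without the muscle-rich arrays, against 51. In DKO against Gadd45a-KO they were 3062 with no filter, 502 with only the arrays compared and 1 without the muscle-rich arrays, against 4704, and in DKO against Ing1-KO 0 in both latter settings, against 1. Without the muscle-rich arrays the Ing1 comparison called 1 gene, against 5038, and the Gadd45a comparison 0, against 1. Median centring moved the share of calls that were higher from 43.3% to 63.7% in the Ing1 comparison and from 43.4% to 59.0% in DKO against Gadd45a-KO, and normexp moved the median of all genes in the interaction from 0.01 to 0.12. Signs turned for uncalled values near zero. For Arntl in the Ing1 comparison the log2 fold change was 0.059 with median centring, 0.026 with normexp and 0.019 with the authors' values. With normexp, Cry1 was -0.042 in Ing1-KO against WT, -0.0035 in the Ing1 comparison and 0.057 in DKO against Ing1-KO, and Npas2 was -0.17 in DKO against WT. Without the muscle-rich arrays Clock was -0.051 and Nr1d1 -0.13 in Ing1-KO against WT, and Per1 was -0.070 and Ciart 0.12 in DKO against WT. The correlation of Arntl with Npas2 was 0.52 with normexp, 0.72 with the authors' values and 0.59 without the 2 farthest arrays, none past the threshold. That with Clock passed it at 0.78 with the replicate block and at 0.81 without the muscle-rich arrays. That with Cry2 was -0.056 with normexp, -0.074 with the authors' values, -0.19 with genotype means subtracted, -0.35 with the replicate block and -0.50 without the 2 farthest arrays, and that with Cry1 was -0.012 without the muscle-rich arrays. Leaving out 1 array at a time gave 0 to 2 members called in the Ing1 comparison, 0 to 2 in DKO against Gadd45a-KO and 0 to 1 in DKO against WT, where Clock was called without DKO replicate 3. Genes called ranged over 0 to 1 in Gadd45a-KO against WT, 1 to 16 in Ing1-KO against WT, 1 to 3307 in DKO against WT, 1901 to 7087 in the Ing1 comparison, 1 to 2 in the Gadd45a comparison, 0 to 3 in DKO against Ing1-KO and 539 to 7065 in DKO against Gadd45a-KO. Log2 fold changes that crossed zero ranged over -0.051 to 0.23 for Clock, -0.063 to 0.33 for Cry2 and -0.13 to 0.41 for Nr1d1 in Ing1-KO against WT. They ranged over -0.070 to 0.33 for Per1, -0.25 to 0.40 for Per2, -0.17 to 1.12 for Npas2, -0.48 to 0.059 for Dbp and -1.11 to 0.12 for Ciart in DKO against WT. In DKO against Ing1-KO they ranged over -0.45 to 0.15 for Cry1, -0.0026 to 0.36 for Cry2 and -0.017 to 0.41 for Nr1d1, and for Arntl in the Ing1 comparison over -0.10 to 0.080. Correlations of Arntl ranged over -0.12 to 0.25 with Cry1, -0.61 to 0.19 with Cry2, -0.55 to 0.053 with Nr1d1, 0.76 to 0.88 with Npas2 and 0.40 to 0.73 with Clock. The cause of these changes was not tested, except that fewer arrays enter where arrays were left out and other numbers of probes where the filter changed. Npas2 and Cry1 signals near background limit what their values show.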
